A study of Danio rerio with 4 samples.

Results

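Keratin genes and the genes of the cornified and desmosomal epithelium were examined in gonads of untreated adult zebrafish. The rule took every row of the count table whose lower case gene symbol begins with krt, cyt1, evpl, icn, dsc2, jup or anxa1, is ppl, dsp, dspa or dspb, or is pkp followed by a digit. It found 47 of 32520 gene rows, of which 29201 have a symbol. The 47 are 4 simple keratin genes (krt8, krt18a.1, krt18a.2 and krt18b), 18 other keratin genes, 13 desmosome and linker genes, 2 ictacalcins, 4 annexin A1 genes, and 6 rows that match only by prefix (krtcap2, both anxa11 rows, anxa13, anxa13l and anxa14). Symbols are not unique in the table, and dsp, jup and anxa11 each stand for 2 gene IDs, which are kept apart here by ID. The samples were 2 ovaries and 2 testes, each from 1 adult fish of AB, a zebrafish laboratory line. Fish of a treatment group shared a tank, and all 4 here were untreated null controls from work on exemestane, which blocks the oestrogen-making enzyme aromatase. The question put to the data was how these epithelial genes differ between the sexes and between the fish of one sex.

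Keratins are the intermediate filament proteins of epithelial cells and assemble as pairs of 1 type I and 1 type II chain. Krt8 (type II) and Krt18 (type I) form the pair of single-layered epithelia, whereas pairs such as Krt5 with Krt15 or Krt17 belong to stratified epithelia like skin. The filaments are anchored at desmosomes, cell junctions built from desmosomal cadherins, plakoglobin, plakophilins and desmoplakin. In mammals periplakin and envoplakin also form part of the cornified envelope of skin. Fish skin is a living, mucus-covered epithelium without the horny layer of mammals.

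The libraries held between 11554811 and 26137839 counts. The tissue labels were checked with marker lists. Oocyte markers summed to 7248 and 4676 CPM in ovary, against 49.9 and 41.6 CPM in the testes, and male germ cell markers to 222 and 165 CPM in ovary, against 2166 and 2223 CPM in the testes. CPM are read counts per 1000000 of the scaled library size. The 2 testes differed from each other in ways that touch many values below. Testis replicate 1 was above replicate 2 in the fibroblast and mesothelium list (643 against 139 CPM, 4 of 4 genes), the Leydig or theca list (1661 against 595 CPM, 3 of 4 genes) and the endothelium list (114 against 55.9 CPM, 2 of 2 genes). Liver markers (22.9 against 5.68 CPM, 3 of 4 genes) and skeletal muscle markers (11.6 against 5.88 CPM, 3 of 3 genes) also differed. The 100 genes most abundant in ovary stood at a median of 0.716% of their ovary level in testis replicate 1 and 0.245% in replicate 2. The ovaries differed as well. Of 5 granulosa markers listed only 2, fshr and inha, had a row. They summed to 6.99 and 28.0 CPM in ovary replicates 1 and 2. In the testes they were higher (107 and 79.9 CPM), so they do not mark granulosa cells alone. Endothelium markers summed to 12.6 and 30.0 CPM in ovary replicates 1 and 2. The Sertoli list went the other way (42.7 and 20.6 CPM), through dmrt1 alone. Values are therefore given for each library, and the members' main comparisons also without testis replicate 1.

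At an adjusted p under 0.05 in edgeR's quasi-likelihood test, 15 of the 38 members tested were higher in testis and 6 were higher in ovary. Rows that match only by prefix gave 1 of the 15 and 3 of the 6. Of all 21815 tested genes 65.2% passed, with 36.7% higher in testis and 28.5% higher in ovary. The members' share of 39.5% higher in testis was close to that background, and the 15.8% higher in ovary lay below it. The median log2 fold change (testis minus ovary) was 2.14 over the members and 0.45 over all tested genes. Both testes lay above both ovaries in 18 members, or 47.4%, against 48.1% of all tested genes, and both ovaries lay above both testes in 6 members, or 15.8%, against 36.6%. The groups overlapped in the other 14 members. Genes that reached the filter on low counts in the testes alone or the ovaries alone were kept, among members and among all tested genes. Their direction was therefore largely set by the filter. Among the 15 members higher in testis, krt17, krt1-19e, krt1-c5, evpla, anxa1d and anxa14 passed the filter through the testes alone. With at least 10 counts required in each library, these 6 were not tested. In whole gonads, fewer cells of a type and less RNA per cell cannot be told apart.

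**Figure D1:**
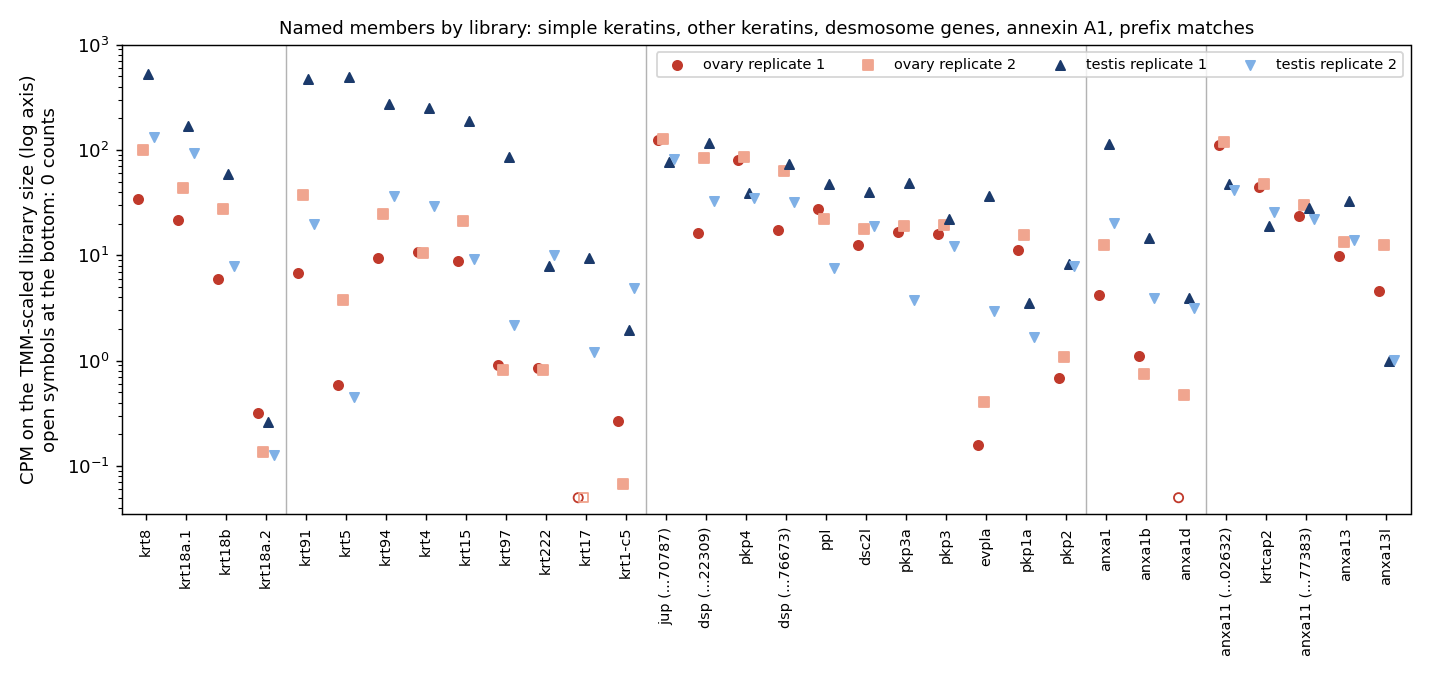
CPM (log axis) of the 32 named members in each of the 4 libraries, with open symbols at the lower edge for 0 counts and vertical lines between the gene classes. Testis replicate 1 (dark triangles) stands far above testis replicate 2 in krt5, krt91, krt15 and krt97, whereas the 2 ovaries and the 2 testes form tight pairs in jup (ENSDARG00000070787), pkp4 and anxa11 (ENSDARG00000002632).

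The simple keratins were read in all 4 gonads. krt8 (ENSDARG00000058358) had 34.5 and 99.5 CPM in ovary against 522 and 134 CPM in testis. Both testes were above both ovaries, but testis replicate 2 and ovary replicate 2 were close. The log2 fold change was 2.29 ± 0.75 SE (adjusted p 0.0351, edgeR), and 0.99 ± 0.55 SE (adjusted p 0.17, edgeR) without testis replicate 1. It did not pass without ovary replicate 1 either (1.75, edgeR adjusted p 0.17). krt18a.1 (ENSDARG00000018404), its type I partner, had 21.6 and 43.8 CPM in ovary against 168 and 93.6 CPM in testis. Here the testes were closer to each other and both lay above the ovaries. The log2 fold change of krt18a.1 was 2.00 ± 0.43 SE (adjusted p 0.00821, edgeR), and it passed without testis replicate 1 as well, at 1.51 ± 0.42 SE (adjusted p 0.0238, edgeR). Without ovary replicate 1 it was 1.60 (edgeR adjusted p 0.0511).

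The other krt18 copies did not follow krt18a.1. krt18b (ENSDARG00000028618) had 5.93 and 27.4 CPM in ovary against 58.9 and 7.98 CPM in testis. Each sex had 1 high and 1 low fish, so the groups overlapped, and the log2 fold change of 1.01 (adjusted p 0.404, edgeR) became -1.06 without testis replicate 1. krt18a.2 (ENSDARG00000058332) had 6 and 2 counts in the ovaries and 4 and 2 in the testes, too few to be tested. The ratio of krt8 to krt18a.1 counts was 1.60 and 2.27 in the ovaries, 3.11 in testis replicate 1 and 1.43 in testis replicate 2, so within each sex the 2 fish differed.

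Simple keratins made up most keratin counts in 3 of the 4 gonads. Of the counts of all 22 keratin genes, krt8 and the krt18 copies took 58.7% in ovary replicate 1 (95% Wilson interval 56.5 to 60.8%) and 62.8% in ovary replicate 2 (61.3 to 64.3%). They took 66.5% in testis replicate 2 (65.2 to 67.7%) but 29.3% in testis replicate 1 (28.8 to 29.7%). These intervals cover counting error only. The share does not depend on how libraries are scaled, but longer genes give more counts, so it compares libraries and does not rank the proteins or transcripts. It averaged 60.7% ± 2.91 in ovary and 47.9% ± 26.3 in testis (SD, n = 2 each), and an exact two-sided permutation test gave p = 1, where the smallest p this design allows is 0.333. All keratins together took 0.337% of the counts of testis replicate 1, against 0.00768% and 0.0224% in the ovaries and 0.0448% in testis replicate 2.

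**Figure D2:**
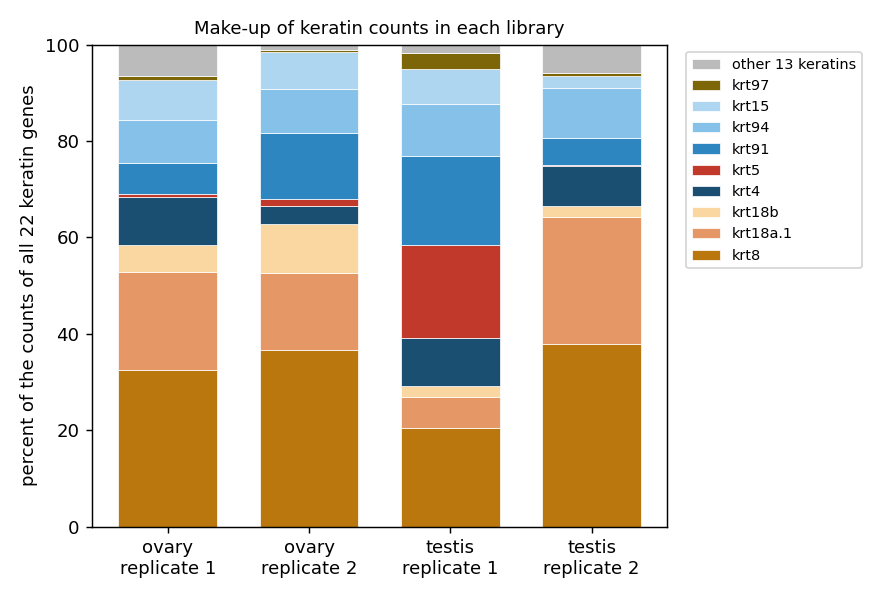
Percent of the counts of all 22 keratin genes taken by each gene, stacked to 100 for each of the 4 libraries, with the simple keratins krt8, krt18a.1 and krt18b at the bottom. Together with krt18a.2 (at most 0.299%, drawn with the remaining genes), these took 58.7, 62.8 and 66.5% in the ovaries and testis replicate 2. In testis replicate 1 they took 29.3%, and krt5 (19.4%) and krt91 (18.4%) take larger parts there than in the other libraries. Parts depend on gene length and compare libraries only.

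The remaining keratins were abundant in a single fish. Their 18 genes summed to 43.9 and 101 CPM in the ovaries, to 119 CPM in testis replicate 2 and to 1809 CPM in testis replicate 1. krt5 (ENSDARG00000058371), which in mammals marks basal cells of stratified epithelia, had 0.582 and 3.76 CPM in the ovaries, 495 CPM in testis replicate 1 and 0.447 CPM in testis replicate 2. In counts this was 11 and 56 in the ovaries and 7544 and 7 in the testes. Testis replicate 1 was the highest of the 4 fish, and testis replicate 2 and ovary replicate 1 were both low. The ratio between the testes was 1107, the largest of all 21815 tested genes when 0.5 CPM was added to each level. The log2 fold change of krt5 was 6.85 ± 2.59 SE (adjusted p 0.0568, edgeR) with all libraries and -2.22 ± 1.46 SE (adjusted p 0.234, edgeR) without testis replicate 1. Without testis replicate 2 it passed at 7.85 (edgeR adjusted p 0.00125). With DESeq2 the comparison of all 4 libraries passed as well (adjusted p 0.026), although the groups overlap.

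krt91, krt15 and krt97 showed the same gap between the testes. krt91 (ENSDARG00000036830) had 6.83 and 37.1 CPM in ovary against 471 and 19.8 CPM in testis. krt15 (ENSDARG00000036840), a type I keratin that in mammals marks basal cells of skin, had 8.84 and 21.1 CPM in ovary against 189.8 and 9.20 CPM in testis. In both genes testis replicate 2 lay between the 2 ovaries. Their log2 fold changes were 3.48 and 2.73 (edgeR adjusted p 0.0729 and 0.0911), and -0.15 and -0.71 without testis replicate 1. Without testis replicate 2 both passed (4.41 and 3.65, edgeR adjusted p 0.00655 and 0.00223). krt97 (ENSDARG00000000212) had 17 and 12 counts in the ovaries and 1304 and 34 in the testes. The testes did not overlap with the ovaries here, and its log2 fold change of 5.67 ± 1.59 SE (adjusted p 0.0207, edgeR) fell to 1.33 (edgeR adjusted p 0.216) without testis replicate 1. Without ovary replicate 1 or 2 it was 5.80 or 5.55 and did not pass (edgeR adjusted p 0.12 and 0.111).

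krt4 and krt94 were higher in both testes. krt4 (ENSDARG00000017624), a type II keratin whose promoter is used to mark the outer epidermis of zebrafish, had 10.7 and 10.6 CPM in ovary against 253 and 29.7 CPM in testis. The ovaries were alike and the lower testis was still above them. Its log2 fold change was 3.73 ± 0.93 SE (adjusted p 0.0134, edgeR), and 1.47 ± 0.43 SE (adjusted p 0.0273, edgeR) without testis replicate 1. It did not pass without ovary replicate 1 or 2 (3.78 and 3.66, edgeR adjusted p 0.0931 and 0.0857). krt94 (ENSDARG00000044975) had 9.48 and 24.9 CPM in ovary against 273 and 36.9 CPM in testis. Its log2 fold change of 3.17 ± 0.95 SE (adjusted p 0.0263, edgeR) was 1.10 (edgeR adjusted p 0.15) without testis replicate 1, and it did not pass without ovary replicate 1 or 2 (2.68 and 3.98, edgeR adjusted p 0.149 and 0.0659).

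A further set of keratins was low in every gonad but higher in testis, and for krt222, krt1-c5 and krt1-19e testis replicate 1 was not the higher fish. krt222 (ENSDARG00000071518) had 0.847 and 0.807 CPM in ovary against 7.94 and 10.0 CPM in testis, at a log2 fold change of 3.43 ± 0.58 SE (adjusted p 0.00341, edgeR). krt1-c5 (ENSDARG00000026979) had 5 and 1 counts in the ovaries and 30 and 76 in the testes, a log2 fold change of 4.23 ± 0.93 SE (adjusted p 0.00838, edgeR). krt1-19e had 0 counts in both ovaries and 13 and 21 in the testes, which against a floor of 3 counts per ovary library was at least 4.73-fold and 7.44-fold higher (edgeR adjusted p 0.00574). krt17 (ENSDARG00000094041) also had 0 counts in both ovaries. Its 144 and 19 counts in the testes were at least 52.4-fold and 6.73-fold above the floor (edgeR adjusted p 0.0127), so its direction was shared by both fish and its size was not. Without testis replicate 1 the log2 fold change was 3.58 for krt222 and 4.72 for krt1-c5. krt17, krt1-19e and krt1-c5 entered that fit through testis replicate 2 alone, so for them a call toward ovary was hardly possible. krt17 missed the threshold without ovary replicate 1 (edgeR adjusted p 0.054), and krt1-19e was too low to be tested without testis replicate 2.

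krt1-19d showed the pattern of krt5 in a gene without ovary counts, with 0 and 0 counts in the ovaries and 267 and 5 in the testes, at least 97.2-fold above the floor in testis replicate 1 and 1.77-fold in replicate 2. It was too low in 3 libraries to be tested. It passed in DESeq2 (adjusted p 0.0269) and did not pass in edgeR without the filter on low counts (adjusted p 0.0825). The fit without testis replicate 2 took it in through testis replicate 1 alone and does not test the gap between the testes. The other keratins that were not tested (krt93, krt95, krt98, cyt1 and cyt1l) had at most 31 counts over the 4 libraries. krt92 and krt99 were tested and did not pass. Of the 15 keratins tested, 9 were higher in testis and 0 in ovary, beside 36.7% and 28.5% of all tested genes (10 keratins had an unadjusted p under 0.05). Of the 9, krt17, krt1-19e and krt1-c5 passed the filter through the testes alone, so a call toward ovary was hardly possible. With at least 10 counts required in each library they were not tested. DESeq2 called 11 of 19 keratins higher in testis, krt5 and krt1-19d among them, and 0 in ovary, beside 30.9% and 27.4% of all genes. The median log2 fold change in edgeR was 3.43, or 3.17 with krt17 and krt1-19e set to their bound.

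The members were then set against all genes in the 2 testes. Testis replicate 1 was more than 4 times testis replicate 2 in 15 of the 38 tested members, or 39.5%, against 3.36% of all tested genes, and it was the higher fish in 31 of 38, or 81.6%, against 43.7%. Among the classes this held by more than 4 times for 8 of 12 other keratins, 1 of 3 simple keratins and 4 of 13 desmosome and linker genes. In no tested member was testis replicate 2 more than 4 times testis replicate 1, which was so for only 302 of all 21815 tested genes. The ovaries differed less. Ovary replicate 2 was above ovary replicate 1 in 27 of 38 tested members, or 71.1%, against 48.7% of all tested genes. This included krt8 (2.88 times), krt18b (4.61 times), krt91 (5.43 times) and krt5 (6.46 times), whereas krt4 was at 0.982 times.

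**Figure D3:**
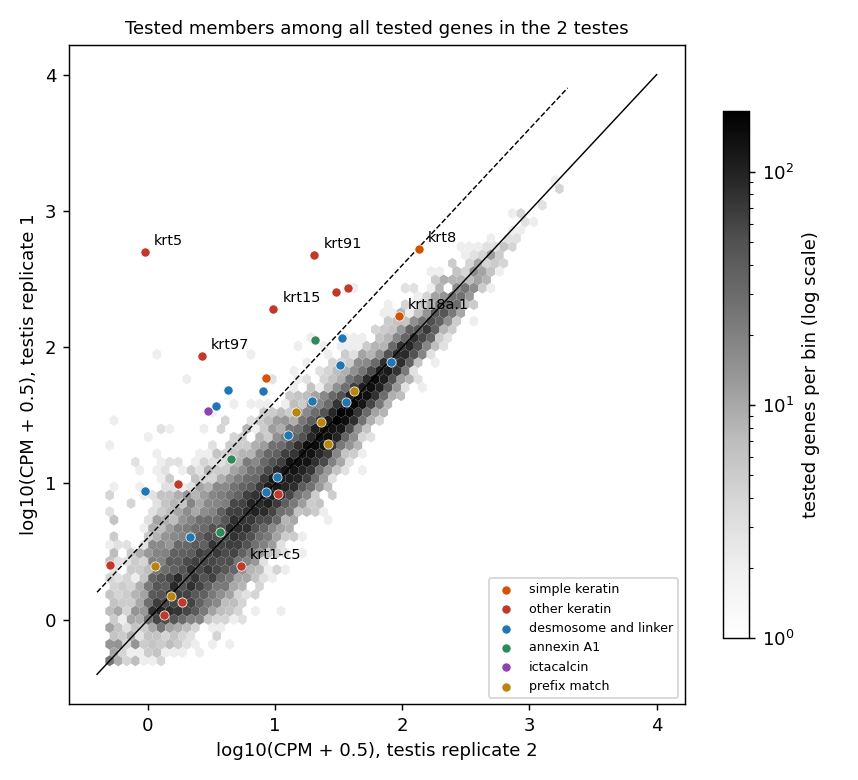
Log10 of CPM plus 0.5 in testis replicate 1 against testis replicate 2 for all 21815 tested genes (grey bins) and the 38 tested members (coloured by class), with equality as a solid line and a 4-fold excess of replicate 1 as a dashed line. The 15 members above the dashed line include krt5, krt91, krt15 and krt97, and krt18a.1 and krt1-c5 lie near or below the solid line.

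Some adjacent keratin genes differed widely in this ratio, and others shared the gap. In the gene order of RefSeq's GRCz12tu assembly, 27 of the 28 keratin, ictacalcin and annexin A1 symbols were found, and 23 lay in 6 runs of neighbouring protein-coding genes. One run holds krt5, krt8, krt18a.1 and krt18a.2 in this order. Testis replicate 1 had 1107 times the level of testis replicate 2 in krt5, 3.90 times in krt8 and 1.79 times in krt18a.1. A run of 5 holds krt93, krt94, krt98, krt15 and krt99, where the ratio was 7.41 for krt94 and 20.6 for krt15. For krt98, not tested, it was 0.302 on 5 and 17 counts. A run of 7 begins with krt1-19d and krt1-19e, at 54.9 and 0.636, and ends with krt17 and krt91, at 7.79 and 23.8. The ratio of krt1-19e rests on 13 and 21 counts. Both ictacalcins, which lie side by side, had the gap (13.4 for icn and 87 against 1 counts for icn2), as did krt99 next to krt15 (31 against 0 counts). Reads that match several of these related copies equally well may have been left out by the counting, so the levels of near-identical copies are uncertain.

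The desmosome genes were detected in both sexes and split by member. pkp4 (ENSDARG00000045331), an armadillo protein of adherens and desmosomal junctions, had 79.6 and 86.6 CPM in ovary against 39.0 and 35.3 CPM in testis, and its log2 fold change was -1.16 ± 0.21 SE (adjusted p 0.00443, edgeR). jup (ENSDARG00000070787), plakoglobin, had 125 and 126 CPM in ovary against 77.7 and 81.6 CPM in testis, at a log2 fold change of -0.66 ± 0.20 SE (adjusted p 0.028, edgeR). The groups did not overlap in either gene and fish of one sex were close. With library size alone as the scaling, jup moved to 0.09 and pkp4 to -0.42, and neither passed. jup also missed the threshold without any 1 of the libraries (edgeR adjusted p 0.0524 to 0.0846). pkp1a (ENSDARG00000090598), a plakophilin, had 11.3 and 15.5 CPM in ovary against 3.54 and 1.66 CPM in testis, at a log2 fold change of -2.36 ± 0.56 SE (adjusted p 0.0113, edgeR). It did not pass with library size alone (-1.62) or without ovary replicate 2 (-2.18, edgeR adjusted p 0.0506), and was -3.01 without testis replicate 1 (edgeR adjusted p 0.0159).

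2 of the 13 members of this class were higher in testis, beside 36.7% of all tested genes. pkp2 (ENSDARG00000023026), a plakophilin known from heart muscle and simple epithelia of mammals, had 0.688 and 1.08 CPM in ovary against 8.20 and 7.92 CPM in testis. The testes were alike, and the log2 fold change was 3.19 ± 0.60 SE (adjusted p 0.00496, edgeR), or 3.17 without testis replicate 1. evpla (ENSDARG00000019808), envoplakin, had 0.159 and 0.403 CPM in ovary against 36.5 and 2.94 CPM in testis. Both testes exceeded the ovaries, by unequal amounts, and evpla passed the filter on low counts through the testes alone. The log2 fold change of evpla was 6.14 ± 1.37 SE (adjusted p 0.00917, edgeR), and 3.40 ± 0.88 SE (adjusted p 0.0174, edgeR) without testis replicate 1. Without ovary replicate 1 it was 5.63 (edgeR adjusted p 0.075).

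The direction of ppl and pkp3a turned with the library. ppl (ENSDARG00000101043), periplakin, had 27.5 and 22.3 CPM in ovary against 47.2 and 7.60 CPM in testis. pkp3a (ENSDARG00000051861) had 16.7 and 19.2 CPM in ovary against 48.1 and 3.77 CPM in testis. In both genes 1 testis lay above the ovaries and the other below them. With all libraries the log2 fold changes were 0.14 and 0.53 (edgeR adjusted p 0.881 and 0.646). Without testis replicate 1 they were -1.72 and -2.26 and passed as higher in ovary (edgeR adjusted p 0.0223 and 0.0181), whereas without testis replicate 2 pkp3a passed as higher in testis (1.41, edgeR adjusted p 0.0151).

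Both desmoplakin rows, which anchor keratin filaments to the desmosome, had 1 high and 1 low fish in each sex. dsp (ENSDARG00000022309) had 16.1 and 83.5 CPM in ovary against 116 and 33.1 CPM in testis, and dsp (ENSDARG00000076673) had 17.4 and 62.6 CPM in ovary against 74.1 and 32.0 CPM in testis. The high fish were ovary replicate 2 and testis replicate 1, as for krt18b and krt91. Neither row passed (log2 fold change 0.58 ± 0.83 and 0.41 ± 0.64, SE, edgeR adjusted p 0.558 and 0.597). The desmosomal cadherin dsc2l, pkp3, pkp1 and the second plakoglobin row (ENSDARG00000059067) did not pass, with log2 fold changes of 0.94, -0.03, 2.32 and 0.73. Without testis replicate 1 these were 0.32, -0.54, -0.96 and 0.68, and without testis replicate 2 dsc2l (1.36) and pkp1 (3.22) passed (edgeR adjusted p 0.0295 and 0.0199). Over the 13 genes of the class the median was 0.53.

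The ictacalcins, small calcium-binding proteins of the S100 family described in fish skin, were high in 1 testis. icn (ENSDARG00000009978) had 0.794 and 3.36 CPM in ovary against 33.3 and 2.49 CPM in testis, and its log2 fold change of 3.12 ± 1.25 did not pass (SE, edgeR adjusted p 0.0679). It was 0.29 without testis replicate 1 and passed at 4.02 without testis replicate 2 (edgeR adjusted p 0.00754). icn2 had 0 counts in both ovaries, 87 in testis replicate 1 and 1 in testis replicate 2, and was not tested with all libraries. The fit without testis replicate 2 took it in through testis replicate 1 alone and does not test the gap between the testes. It did not pass in edgeR without the filter on low counts (adjusted p 0.12) and passed in DESeq2 (adjusted p 0.00217). In testis replicate 1 it was at least 31.7-fold above the ovary floor.

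The annexin A1 genes encode calcium-dependent membrane-binding proteins, known in mammals for limiting inflammation. All 3 that were tested were higher in testis, beside 36.7% of all tested genes, and anxa1d passed the filter on low counts through the testes alone. anxa1 (ENSDARG00000026726) had 4.18 and 12.4 CPM in ovary against 113 and 20.2 CPM in testis, at a log2 fold change of 3.00 ± 0.89 SE (adjusted p 0.025, edgeR). anxa1b (ENSDARG00000100095) had 1.11 and 0.739 CPM in ovary against 14.6 and 3.96 CPM in testis, at a log2 fold change of 3.31 ± 0.82 SE (adjusted p 0.0134, edgeR). In these genes the testes differed, and neither passed without testis replicate 1 (log2 fold change 1.28 and 2.06, edgeR adjusted p 0.166 and 0.065). Without ovary replicate 1 or 2 they missed the threshold too, with edgeR adjusted p from 0.0509 to 0.136. anxa1d (ENSDARG00000098481) had 0 and 7 counts in the ovaries and 60 and 50 in the testes. The testes were alike there, and its log2 fold change of 3.99 ± 1.11 SE (adjusted p 0.0203, edgeR) was 3.86 without testis replicate 1 (edgeR adjusted p 0.0275) and 2.91 without ovary replicate 1 (edgeR adjusted p 0.0511). anxa1c had 0 counts in both ovaries and 5 and 9 in the testes, too few to be tested.

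The prefix matches differed from the rest. anxa11 (ENSDARG00000002632) had 112 and 118 CPM in ovary against 47.1 and 41.3 CPM in testis, at a log2 fold change of -1.38 ± 0.21 SE (adjusted p 0.00233, edgeR). krtcap2 (ENSDARG00000070386), a subunit of the enzyme complex that glycosylates proteins and no keratin, had 44.9 and 47.7 CPM in ovary against 18.9 and 25.7 CPM in testis, at a log2 fold change of -1.06 ± 0.26 SE (adjusted p 0.0134, edgeR). anxa13l was higher in ovary (-3.07 ± 0.72, SE, edgeR adjusted p 0.011) and anxa14, with at most 30 counts in a library, was higher in testis (3.79 ± 1.15, SE, edgeR adjusted p 0.0245). The second anxa11 row (-0.09) and anxa13 (1.01) did not pass. anxa13 was 0.27 without testis replicate 1 and passed without testis replicate 2 (1.49, edgeR adjusted p 0.028). krtcap2 did not pass with library size alone (-0.32) or without testis replicate 1 (-0.86, edgeR adjusted p 0.058). anxa13l did not pass without testis replicate 1 (edgeR adjusted p 0.0512) or ovary replicate 2 (edgeR adjusted p 0.0656), and anxa14 not without ovary replicate 1 or 2 (edgeR adjusted p 0.0593 and 0.127), while without testis replicate 1 it was too low to be tested.

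Leaving out testis replicate 1 kept 9 of the 15 members that were higher in testis and 3 of the 6 that were higher in ovary. The 9 were krt18a.1, krt4, krt17, krt222, krt1-c5, krt1-19e, anxa1d, evpla and pkp2. Of 39 members tested without this library, 10 were higher in testis and 6 in ovary, where 31.7% and 23.7% of all genes tested were. The members gained were krt98 (higher in testis) and ppl, pkp3a and krt99 (higher in ovary). In krt99 this rests on 0 counts in testis replicate 2. krt98, with 2 and 0 counts in the ovaries and 17 in testis replicate 2, entered this fit through that library alone. Of the members kept toward testis, krt17, krt1-c5, krt1-19e, anxa1d and evpla entered in the same way. For these a call toward ovary was hardly possible. A fit with 1 library in a group assumes that it would vary like the other libraries.

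The other libraries mattered as well, although icn2 and krt1-19d enter a fit without testis replicate 2 through testis replicate 1 alone. Without testis replicate 2, 24 members were higher in testis (32.1% of all genes tested) and 5 in ovary (24.7%), 14 and 5 of which were among those called with all libraries, and krt5, krt91, krt15, icn, icn2 and krt1-19d were among the 10 gained. Without ovary replicate 1, 4 members were higher in testis (23.2% of all genes tested) and 5 in ovary (21.5%). Without ovary replicate 2, 9 were higher in testis (26.4%) and 3 in ovary (24.7%). Under each of the 4 omissions krt222, krt1-c5 and pkp2 were higher in testis and pkp4 and anxa11 (ENSDARG00000002632) higher in ovary, and these were the only 5 members for which that was so. krt1-c5 entered each of these fits through the testes alone, so for it a call toward ovary was hardly possible. krt222 and pkp2 had at most 16 counts in an ovary. Without the filter on low counts 10 of 47 members were higher in testis and 6 in ovary, beside 7314 and 6049 of 29285 genes. There krt8, krt94, krt97, anxa1 and anxa14 missed the threshold (edgeR adjusted p 0.0528 to 0.0749). With at least 10 counts required in each library, jup (ENSDARG00000070787, -0.24) and krtcap2 (-0.65) did not pass.

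**Figure D4:**
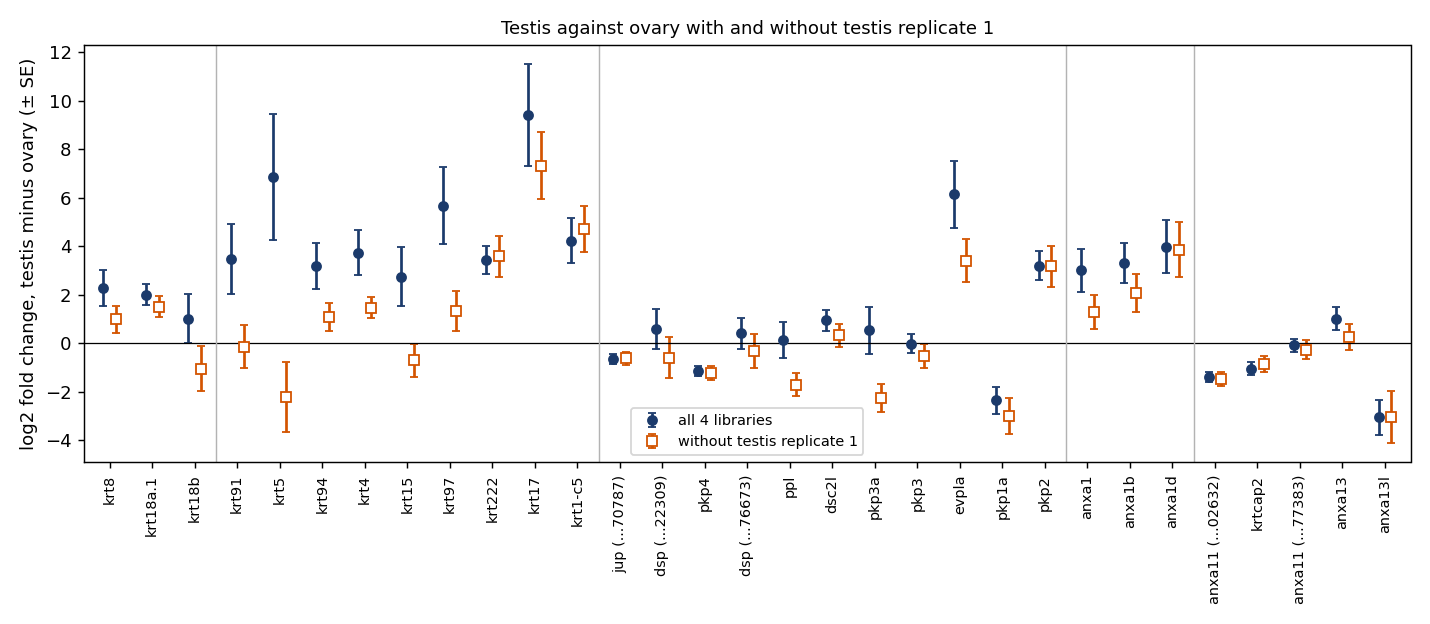
Log2 fold change (testis minus ovary, ± SE) of the 31 named members that were tested, with all 4 libraries (filled) and without testis replicate 1 (open), grouped by class. The fitted value of krt17, which had 0 ovary counts, is no bound. krt5, krt91, krt15, krt18b, ppl, pkp3a and both dsp rows go from above 0 to below 0. By contrast, krt222, pkp2, anxa1d, pkp4 and anxa11 (ENSDARG00000002632) hardly move.

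Other genes of the same structures were compared in lists chosen for their function, none of them members. Of 61 such genes 50 were tested, of which 23 were higher in testis and 11 in ovary, with a median log2 fold change of 1.60. This is 46% and 22%, beside 36.7% and 28.5% of all tested genes, whose median was 0.45. Without testis replicate 1 the counts were 17 and 12 of 51. With at least 10 counts required in each library, 15 of 35 were higher in testis and 8 in ovary, beside 4566 and 4552 of 15277 genes. The counts of each list are to be read against the shares of all tested genes. Among 11 tested intermediate filament genes outside the keratins, 7 were higher in testis and 2 in ovary (median 3.02). Of the 7, gfap, prph, bfsp2 and a vim row (ENSDARG00000044501) passed the filter on low counts through the testes alone. For these a call toward ovary was hardly possible. With at least 10 counts required in each library, 3 of 6 were higher in testis and 2 in ovary. The synemin gene synm had 1.32 and 2.62 CPM in ovary against 124 and 101 CPM in testis (edgeR adjusted p 0.000224), and the nuclear lamin gene lmnb1 had 509.7 and 494 CPM in ovary against 45.3 and 49.9 CPM in testis (edgeR adjusted p 0.000266). The gene of the lens filament phakinin, bfsp2, had 0 and 1 counts in the ovaries and 36 and 72 in the testes. Testis replicate 1 was more than 4 times replicate 2 in 0 of the 11 tested genes, against 3.36% of all tested genes. With 11 genes this is near that share. The highest ratio was that of a vim row (ENSDARG00000010008, 3.75). The examples were chosen by adjusted p, which favours genes with close replicates.

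Among 11 junction and linker partners, 5 were higher in testis and 3 in ovary (median 1.62). The plectin gene plecb, a linker between filaments and junctions, had 37.6 and 41.7 CPM in ovary against 753 and 798 CPM in testis (edgeR adjusted p 0.000221). The desmosomal cadherin dsg2.1 had 4.29 and 3.50 CPM in ovary against 31.6 and 27.5 CPM in testis (edgeR adjusted p 0.00092). ctnnd1, the catenin p120 of adherens junctions, was higher in ovary (-1.63, edgeR adjusted p 0.00323). Of 5 tested annexins outside the members, anxa6 (5.42) and anxa5a (17 and 27 counts in the testes and 0 in both ovaries) were higher in testis and anxa5b (-3.19) in ovary. Of 10 tested S100 genes, 4 were higher in testis, s100b (6.77) and s100z (7.73) among them, and 2 in ovary, led by s100a1 (-7.79). anxa6, anxa5a, s100b and s100z passed the filter on low counts through the testes alone. With at least 10 counts required in each library, 0 of 3 annexins and 2 of 7 S100 genes were higher in testis. In ovary these numbers were 1 and 0.

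The list of 17 other epidermis genes was read for all libraries, skin being a tissue known to hold krt5 and the ictacalcins. It summed to 2359 and 1238 CPM in ovary, against 510.5 and 306 CPM in the testes. Of its 17 genes, 15 were higher in testis replicate 1 than in replicate 2, against 43.7% of all tested genes. epcam and the cadherin gene cdh1 carried the ovary sums, and the other 15 genes summed to 184 and 179 CPM in the ovaries, 299 CPM in testis replicate 1 and 118 CPM in testis replicate 2. Of the 13 tested, 5 were higher in testis and 3 in ovary. Among the 5, col17a1a and col17a1b passed the filter on low counts through the testes alone. With at least 10 counts required in each library, 3 of 9 were higher in testis and 2 in ovary. The hemidesmosome collagens col17a1a (293 and 261 counts in the testes) and col17a1b (378 and 200 counts) were read in both testes and had at most 8 counts in an ovary, and the epithelial splicing regulator esrp2 was higher in ovary (-3.13, edgeR adjusted p 0.000454). Testis replicate 1 was more than 4 times replicate 2 in 6 of the 17 genes. By contrast, cdh1 (1.05 times) and col17a1a (1.15 times) were alike in the testes, and ovol1a and scel were lower in testis replicate 1. Some of the 6, chosen after their values were seen, are given here. The claudin cldne had 86 and 0 counts in the testes, cldni 113 and 8, and epcam 212 and 3, although epcam was also read in the ovaries (23524 and 1369 counts). tp63, which encodes a regulator of basal epidermis, had 302 and 116 counts in the testes and 218 and 141 in the ovaries. Gut epithelium markers summed to 3.54 and 4.22 CPM in the testes, and kidney and duct markers to 11.4 and 12.8 CPM, so neither sum was higher in testis replicate 1. The gut sums rest on 54 and 66 counts, and 1 of the 4 genes, cdx1b (35 and 7 counts), was higher in testis replicate 1. The part of these tissues in the keratin levels was not tested.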

How the data were processed

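Gonads of 2 female and 2 male zebrafish were sequenced as stranded libraries. Per the labels ribosomal RNA was depleted, while the methods of the study describe adult libraries as selected for poly(A). The authors aligned reads with HISAT2 2.0.5, removed duplicates with SAMtools 1.5 and deposited raw read counts per Ensembl gene from HTSeq 0.9.1 (GRCz11). Removing duplicates can compress abundant genes. Gene lengths of this annotation were not used, so counts and shares compare libraries and not genes. Sequences are not shown.

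Genes were filtered with filterByExpr, scaled by TMM (trimmed mean of M-values) and fitted across all genes with the quasi-likelihood test of edgeR 4.0.16 (R 4.3.3, legacy off, Benjamini-Hochberg), with testis against ovary as the only term. SE is the log2 fold change divided by the square root of F. The code was tested on simulated data. Per the study's methods the fish of a treatment group, both sexes, shared 1 tank with a perforated plate between the sexes. The p-values therefore measure the spread between these fish, 2 per sex.

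Members and lists were chosen with earlier results of these data known. Named were all krt8 and krt18 rows, other members with an adjusted p under 0.05 and a mean of at least 1 CPM or with a mean of at least 10 CPM, and at most 3 genes per list, those with the smallest adjusted p. Other list genes were named after their values were seen. Listed symbols without a row were left out. Alternatives were DESeq2 1.42.0, its size factors, library size, 2 filters, a threshold of 0.01, a replicate block and each library left out. Figures used matplotlib 3.10.9.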

Additional observations from a re-analysis of the deposited data

How the results depend on the processing

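The counts of members and of list genes were within 1.5 times under DESeq2 size factors, DESeq2's test, no filter beyond 1 count, the replicate block and the legacy quasi-likelihood test, which was added after seeing the data. The genes were not all the same, and the numbers tested differed. With no filter beyond 1 count 10 of 47 members were higher in testis, instead of 15 of 38. Among all genes this was 7314 of 29285, instead of 8002 of 21815. Of the 15 members higher in testis, 10 passed with no filter beyond 1 count, 14 in DESeq2 and 15 with its size factors. Among members, 2 instead of 6 were higher in ovary with library size alone, and 2 at an adjusted p under 0.01, where 6 instead of 15 were higher in testis. In the 5 lists together, 7 instead of 11 were higher in ovary with library size alone, and 15 instead of 23 were higher in testis both at 0.01 and with a filter of 10 counts per library. Among all 21815 tested genes, those higher in ovary went from 6217 to 3833 with library size alone. At 0.01, 4563 were higher in ovary and 5258 in testis, instead of 6217 and 8002. With the filter of 10 counts, 4566 of 15277 genes were higher in testis. Library size alone moved the median of all genes by 0.74 and the filter at 10 counts by -0.38.

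With 1 library left out at a time, in turn, members higher in ovary numbered 3 to 6 and members higher in testis 4 to 24, list genes 9 to 12 and 16 to 32, and the difference in the simple keratin share (testis minus ovary, -12.8 percentage points) ranged from -31.5 to 5.78. The log2 fold change took both signs across these fits for krt5 (-2.22 to 8.67), krt91 (-0.15 to 5.12), krt15 (-0.71 to 3.65), krt18b (-1.06 to 2.44), dsp (ENSDARG00000022309, -0.60 to 2.15), dsp (ENSDARG00000076673, -0.33 to 1.54), ppl (-1.72 to 0.91), pkp3a (-2.26 to 1.41), pkp3 (-0.54 to 0.33) and anxa11 (ENSDARG00000077383, -0.27 to 0.0473), and also for pkp1 (-0.96 to 3.22), krt99 (-6.03 to 3.12) and krt92 (-2.31 to 0.59). With library size alone jup (ENSDARG00000070787) was at 0.0885, pkp3 at 0.72 and anxa11 (ENSDARG00000077383) at 0.65, and with the filter at 10 counts the latter pair was at 0.40 and 0.33. The cause was not tested. No label pairs the fish by replicate number. The correlation of same-numbered deviations across genes was -0.03, which cannot exclude an effect shared by same-numbered fish. With the replicate block 5610 of all genes were higher in ovary and 7191 in testis. With it krt8, krt94, krt97, anxa1 and jup (ENSDARG00000070787) missed the threshold (edgeR adjusted p 0.0545 to 0.0993), and ppl and pkp3a were at -0.38 and -0.37. The share per coding length was not run. Depth limits genes near the floor of 3 counts, or 0.159 to 0.202 CPM.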
